A study of Homo sapiens with 5 samples.

Results

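Steroid receptors and the luminal transcription program were represented by 9 genes in BT474, an established human breast cancer cell line of luminal type with amplified HER2. All rows of the deposited expression table whose gene symbol was ESR1, PGR, GATA3, FOXA1, SPDEF, MYB, NPY1R, GREB1 or PDZK1 were taken, and each symbol stood on 1 row, giving 9 of 18512 genes. Persister cells were BT474 cells that remained after 9 days in lapatinib at 2 µM, a drug that blocks the kinase activity of EGFR and HER2, started at 75% confluence with medium and drug renewed every 3 days (3 libraries). Parental cells were BT474 cells cultured at the same time in the solvent, 0.01% DMSO, without the drug (2 libraries). Both groups received that solvent level and were grown in RPMI medium with serum. All libraries came from a single cell line, and the labels name no untreated culture free of solvent, no short treatment and no culture released from the drug.

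The estrogen receptor alpha, encoded by ESR1, is a transcription factor that binds estradiol and then DNA, often at sites opened by the pioneer factors FOXA1 and GATA3. Its activity in luminal breast cells is usually read from genes it induces, among them PGR, GREB1, NPY1R and PDZK1, and also TFF1, CCND1 and SLC39A6, which are not among the 9 genes. Receptor tyrosine kinase signalling through PI3K and through ERK is known to alter how much receptor is made and how active it is. In HER2-amplified luminal cells the growth factor and hormone pathways are therefore often studied together.

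Of the 9 genes, 6 were called higher in persister cells and 2 lower, and PGR had no test. A gene was called when the q-value in the authors' deposited table was under 0.05. It lists the smallest q-values as 0. That table gave 1 FPKM value (fragments mapped to a gene, divided by transcript length and library depth) per gene in each group, so every FPKM printed here is a group value of the authors, without SD or n. The background was high: 69.9% of the 13617 genes covered by the authors' test were called, 30.9% higher and 39.0% lower. Differences are persister minus parental on the log2(FPKM + 1) scale, and this pseudocount understates changes of genes with low values. Among all tested genes, 2.98% were called higher by at least 1 on this scale and 6.01% lower by at least 1. Of the 8 members with a test, 4 were higher by at least 1 (NPY1R, GATA3, GREB1 and PDZK1) and SPDEF was lower by at least 1. The members were chosen with results of these data known, so these shares describe them and do not test them as a set.

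The median difference over the 10160 tested genes with at least 1 FPKM in both groups was -0.12. The FPKM values summed to 260213 in persister cells and 333324 in parental cells. With both groups scaled to the same sum, that median was 0.22, and 54.8% of all called genes were higher, against 44.2% as deposited. Counts given for equal FPKM sums keep the authors' q-values for the unscaled values. They recount direction only, and no scaled difference was tested. FOXA1 was the only one of the 9 genes whose sign turned under that scaling. Each group was scaled to a sum of 1e+06 before 1 was added, so the pseudocount also weighed less in that setting. The labels call the samples of a group biological replicates, but the spread between libraries enters here only through the authors' own test. In RNA from bulk cultures, fewer cells of a kind and less RNA per cell cannot be told apart.

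Promoter sequence is shown for PGR, NPY1R, PDZK1 and MYB, which were higher in persister cells by their FPKM values, and for SPDEF, which had the largest fall of the 9. ESR1 and GATA3 were also higher, but their windows are not printed. PDZK1 and MYB hold the only motif matches found in windows of the members, so the printed windows over-represent matches. Each line gives the 250 bases before the most upstream start that RefSeq lists for the gene (build GRCh38.p14), 5′ to 3′ on the strand of the gene. The table itself gives no positions and was made on hg18, so these windows are not tied to the starts used in BT474 cells. Capitals mark letters that match 1 of 4 searched motifs.
PGR, chr11:101129814-101130063, strand minus: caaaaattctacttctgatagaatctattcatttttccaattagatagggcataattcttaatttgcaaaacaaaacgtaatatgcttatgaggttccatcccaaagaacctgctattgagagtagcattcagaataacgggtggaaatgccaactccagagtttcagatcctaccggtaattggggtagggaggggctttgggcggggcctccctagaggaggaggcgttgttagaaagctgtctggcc
NPY1R, chr4:163332597-163332846, strand minus: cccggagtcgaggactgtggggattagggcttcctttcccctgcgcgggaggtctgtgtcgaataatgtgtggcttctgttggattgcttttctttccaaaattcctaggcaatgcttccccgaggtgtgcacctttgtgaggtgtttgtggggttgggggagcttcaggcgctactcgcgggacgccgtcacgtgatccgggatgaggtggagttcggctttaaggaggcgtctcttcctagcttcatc
PDZK1, chr1:145707401-145707650, strand minus: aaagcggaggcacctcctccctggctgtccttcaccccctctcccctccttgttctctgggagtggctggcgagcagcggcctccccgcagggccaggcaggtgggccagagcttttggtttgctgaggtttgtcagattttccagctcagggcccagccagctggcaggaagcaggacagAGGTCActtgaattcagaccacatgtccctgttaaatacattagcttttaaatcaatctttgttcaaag
MYB, chr6:135181058-135181307, strand plus: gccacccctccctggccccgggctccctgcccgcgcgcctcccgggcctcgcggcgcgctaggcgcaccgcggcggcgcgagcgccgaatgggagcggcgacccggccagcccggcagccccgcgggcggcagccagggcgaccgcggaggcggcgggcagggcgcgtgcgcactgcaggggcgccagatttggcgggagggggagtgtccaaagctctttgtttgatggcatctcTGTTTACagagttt
SPDEF, chr6:34556330-34556579, strand minus: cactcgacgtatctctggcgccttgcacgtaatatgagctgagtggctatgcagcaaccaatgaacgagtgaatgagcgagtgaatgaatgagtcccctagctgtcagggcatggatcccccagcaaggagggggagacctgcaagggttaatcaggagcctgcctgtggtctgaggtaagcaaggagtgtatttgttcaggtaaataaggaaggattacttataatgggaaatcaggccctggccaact
The motifs were the palindromic estrogen response element (GGTCA and TGACC on either side of 3 bases of any kind), 1 arm of it (AGGTCA), the GATA motif AGATAA and the forkhead motif TGTTTAC, each read on both strands. The first contains GGTCA, so it can overlap the single arm. RefSeq windows were matched for 8 of the 9 genes, all but GREB1. The full element was in 0 of these 8 windows and in 0.0439% of the windows of 27305 genes. A single arm was found in PDZK1 alone of the 8, against 12.2% of all windows, with its first base 69 bases before the start. The forkhead letters were found in MYB alone of the 8, 14 bases before the start, against 3.01% of all windows. The GATA letters were in 0 of the 8 windows and in 9.4% of all windows. A match is a description of letters, and a missing match says only that these letters are not in this window. The G and C content of the 5 printed windows was 43.6% for PGR, 56.4% for NPY1R, 55.6% for PDZK1, 75.6% for MYB and 50.8% for SPDEF.

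**Figure D1:**
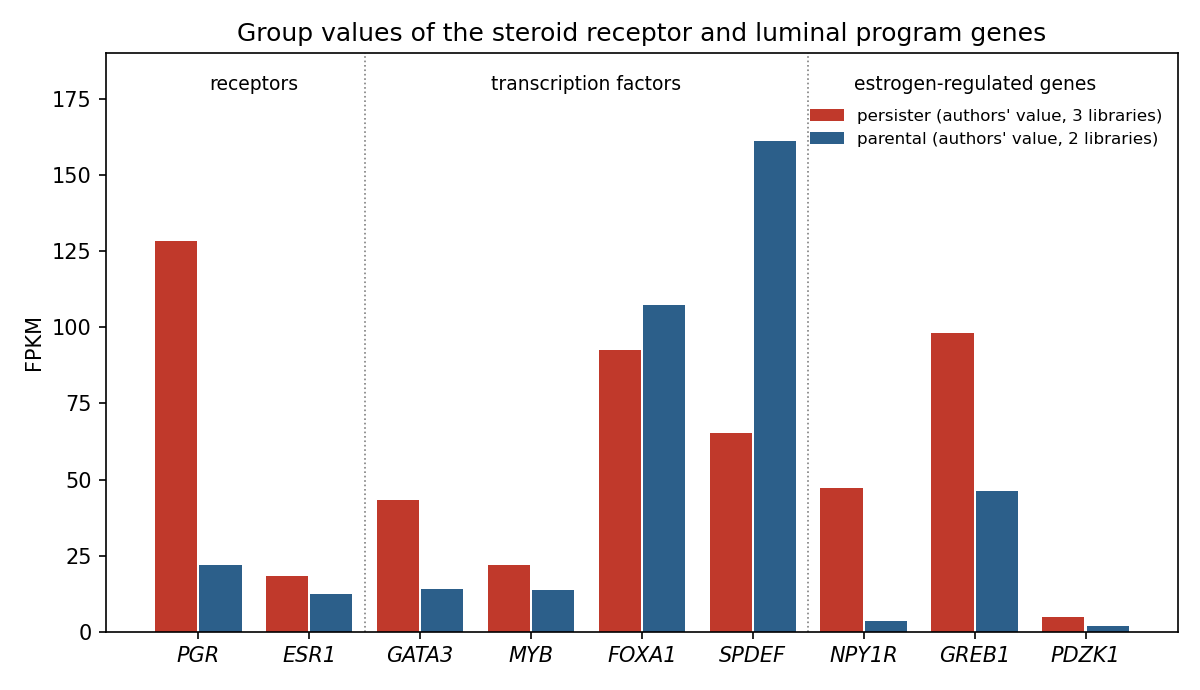
FPKM of the 9 genes in persister cells (red, left bar) and parental cells (blue, right bar), grouped by role, each bar being the authors' single value for a group with no error available. PGR stood at 128 FPKM in persister cells against 21.9 FPKM in parental cells, while SPDEF stood at 65.4 FPKM in persister cells against 161 FPKM in parental cells.

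Among the receptors, ESR1 was moderately higher in persister cells. ESR1 was at 18.2 FPKM in persister cells and 12.4 FPKM in parental cells, 1.47-fold higher. The difference was 0.52 on the log2(FPKM + 1) scale, with q = 8.82e-10 in the authors' deposited table. Among all tested genes, 1508 had a larger difference than ESR1. Its level exceeded that of 81.1% of genes in persister cells and 71.0% in parental cells, counted over genes listed above 0 in either group.

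PGR, the progesterone receptor gene and a textbook estrogen-induced transcript, had the highest level of the 9 genes in persister cells. It was at 128 FPKM in persister cells and 21.9 FPKM in parental cells, a ratio of 5.85 and a difference of 2.49. The authors' deposited table gives this row a fold change of 1 and a q-value of 1, which does not match its FPKM values. PGR was 1 of 145 genes listed in this way, 130 of which had at least 1 FPKM in both groups, and the reason is not stated in the table. Only 7 of the 145, PGR among them, differed by as much as PGR in either direction. If its FPKM values are taken as they stand, 20 tested genes had a larger difference. PGR was therefore not called and is described by its level alone. Exons of the antisense gene PGR-AS1 cover 5.27% of the exonic bases of PGR in GENCODE 29, and the libraries did not keep strand, so reads of the pair cannot be separated there.

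The other steroid receptors were examined on a list of 5 with ESR1 and PGR. Of 4 with a test, 3 were called higher and 0 lower, with a median difference of 0.68. Among all tested genes, 30.9% were higher, with a median of -0.04. The list median was 1.08 with a pseudocount of 0.1 and 1.29 with equal FPKM sums. Over tested genes with at least 1 FPKM in both groups, the medians in those settings were -0.13 and 0.22. NR3C1, which encodes the glucocorticoid receptor, was at 9.02 FPKM in persister cells and 2.89 FPKM in parental cells, 3.12-fold higher (q = 0 in the authors' deposited table). Its difference was 1.37 on the log2(FPKM + 1) scale. NR3C2, the mineralocorticoid receptor gene, was at 1.31 FPKM in persister cells and 0.294 FPKM in parental cells, 4.47-fold higher, with a difference of 0.84 that the pseudocount reduces at this low level (q = 0 in the authors' deposited table). ESR2, which encodes estrogen receptor beta, was listed at 0.176 FPKM in persister cells and 0.119 FPKM in parental cells and was not called (q = 0.281 in the authors' deposited table). Summed over the 5 receptor genes, the level was 157 FPKM in persister cells and 37.6 FPKM in parental cells, with PGR the largest share in each group.

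The 4 luminal transcription factors among the 9 genes went in both directions. GATA3, a zinc finger factor needed for luminal differentiation, was at 43.3 FPKM in persister cells and 14.1 FPKM in parental cells. It was 3.08-fold higher, with a difference of 1.55 and q = 0 in the authors' deposited table, and 116 tested genes had a larger difference. MYB, a transcription factor of progenitor cells that estrogen induces in breast cells, was at 21.9 FPKM in persister cells and 13.6 FPKM in parental cells. Its difference was 0.65 (q = 5.83e-11 in the authors' deposited table). MYB was higher in cells whose proliferation markers were lower. All 8 markers tested were called lower by at least 1, against 6.01% of all tested genes. Without that size limit, 39.0% of all tested genes were called lower. The summed levels of the 8 markers were 31.8 FPKM in persister cells and 341 FPKM in parental cells. The 4 with the largest differences were CCNB1 (5.31 FPKM in persister cells, 71.1 FPKM in parental cells), CDK1 (3.72 FPKM in persister and 51.9 FPKM in parental cells), PLK1 (2.25 FPKM in persister, 33.5 FPKM in parental cells) and BIRC5 (1.81 FPKM in persister, 27.9 FPKM in parental cells). These RNA values do not measure growth, and its part in the level of MYB or of the other members was not tested.

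SPDEF, an ETS-family factor of luminal and secretory epithelium, fell to 65.4 FPKM in persister cells, against 161 FPKM in parental cells. Its difference was -1.29, with q = 0 in the authors' deposited table, and 474 tested genes had a lower difference. FOXA1, the forkhead pioneer factor, was at 92.5 FPKM in persister cells and 107 FPKM in parental cells, with a difference of -0.21 (q = 0.00200 in the authors' deposited table). This was close to the median of -0.12 over tested genes with at least 1 FPKM in both groups. With both groups scaled to the same sum, the difference of FOXA1 was 0.14, so its direction depended on scaling. GATA3 and MYB, the 2 factors that were called higher, stood below FOXA1 and SPDEF in each group.

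The proportions between these factors were given as ratios of FPKM within a group. FOXA1 transcripts were 2.14 times those of GATA3 in persister cells and 7.62 times in parental cells. SPDEF was 1.51 times GATA3 in persister cells and 11.5 times in parental cells. GATA3 itself was 2.38 times ESR1 in persister cells and 1.14 times in parental cells. These ratios are of levels per transcript length within a group and are unaffected by the scaling between groups, but they carry no replicate error.

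A wider list of 18 luminal transcription factors, which includes these 4, also split. Of 17 tested, 9 were called lower and 5 higher, with a median of -0.21. The share higher was 29.4% of the list, against 30.9% of all tested genes, and the share lower 52.9% against 39.0%. Scaled to the same sum, 7 were lower and 7 higher and the median was 0.14, so the sign of the list median depended on scaling. In that setting, 5216 of the 13617 tested genes were higher and 4298 lower. The median over tested genes with at least 1 FPKM in both groups was then 0.22. XBP1, a factor of the unfolded protein response that is also estrogen-regulated, was at 282 FPKM in persister cells and 643 FPKM in parental cells. RUNX1 was at 7.54 FPKM in persister cells and 12.6 FPKM in parental cells, and TFAP2A, an AP-2 factor, at 14.9 FPKM in persister and 23.5 FPKM in parental cells. The histone demethylase gene KDM4B, itself induced by estrogen in breast cells, went the other way, at 10.2 FPKM in persister cells and 6.32 FPKM in parental cells. All 4 were called, with q = 2.00e-10 for TFAP2A, 1.20e-15 for KDM4B and 0 for the others in the authors' deposited table. Among the 13 tested genes that are not members, 7 were called lower and 3 higher.

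**Figure D2:**
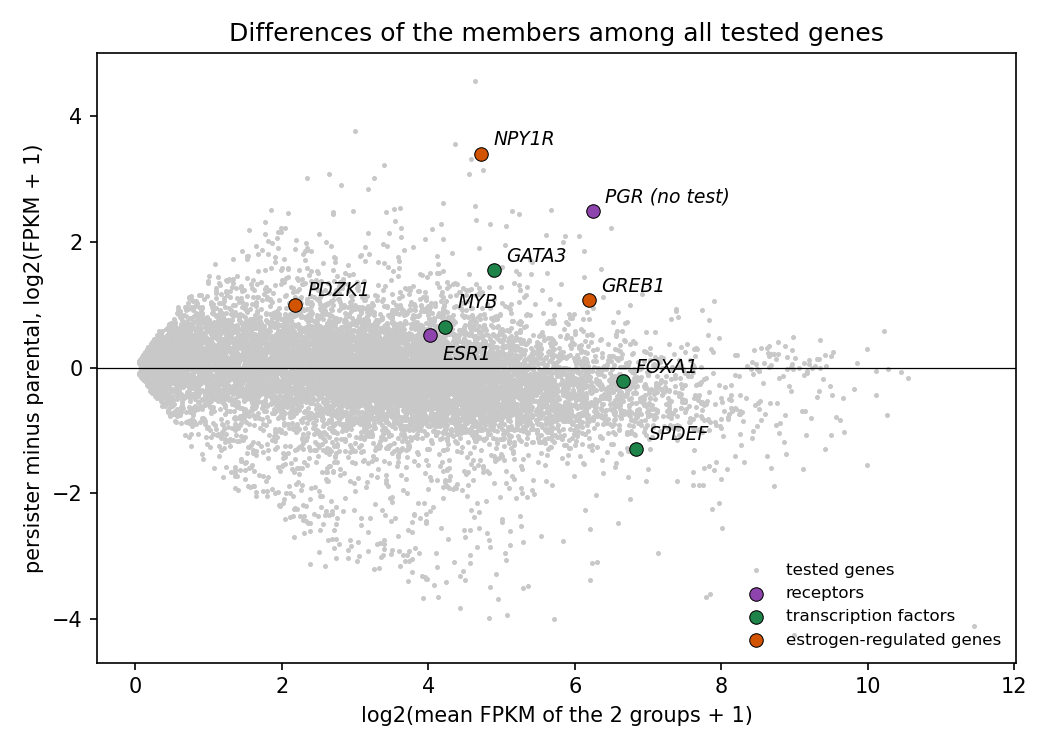
Difference between persister and parental cells on the log2(FPKM + 1) scale against log2 of the mean FPKM of both groups plus 1, for all 13617 tested genes (grey) and the 9 members coloured by role. NPY1R at 3.41 and GATA3 at 1.55 lie on the upper edge of the cloud, ESR1 and MYB within it, and SPDEF at -1.29 towards the lower edge. PGR is placed by its FPKM values and had no test.

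The 3 estrogen-regulated members outside the receptors and factors were all called higher. NPY1R, which encodes a receptor for neuropeptide Y and is induced by estradiol in breast cancer cells, was at 47.2 FPKM in persister cells and 3.55 FPKM in parental cells. It was 13.3-fold higher, with a difference of 3.41 and q = 0 in the authors' deposited table, and only 3 tested genes had a larger difference. Its level exceeded that of 93.8% of genes in persister cells and 49.7% in parental cells. GREB1, a chromatin-bound partner of the estrogen receptor and one of its most used target genes, was at 98.2 FPKM in persister cells and 46.2 FPKM in parental cells. It was 2.12-fold higher, with a difference of 1.07 (q = 0 in the authors' deposited table). PDZK1, a PDZ-domain scaffold of membrane transporters, was at 5.02 FPKM in persister cells and 2.01 FPKM in parental cells. It was 2.50-fold higher, and its difference of 1.00 lay just past the size limit of 1 (q = 0 in the authors' deposited table). RefSeq lists a transcribed pseudogene copy, PDZK1P1, so reads of the copy may be counted with PDZK1 and its value is less certain. GREB1 was 19.6 times PDZK1 in persister cells and 23.0 times in parental cells, while GREB1 was 2.08 times NPY1R in persister cells and 13.0 times in parental cells.

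NPY1R has an exon overlap with a gene on the opposite strand that bears on its reads. NPY5R, another neuropeptide Y receptor gene, covers 12.6% of the exonic bases of NPY1R in GENCODE 29. NPY5R was listed at 0.141 FPKM in persister cells and 0.0154 FPKM in parental cells (q = 1.77e-04 in the authors' deposited table). Since strand was not kept, reads of the pair cannot be told apart in that overlap. Exon overlaps of the other members were smaller, at 1.88% of MYB, 0.974% of ESR1 and 0.402% of FOXA1, and none was annotated for GATA3, SPDEF, GREB1 or PDZK1.

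**Figure D3:**
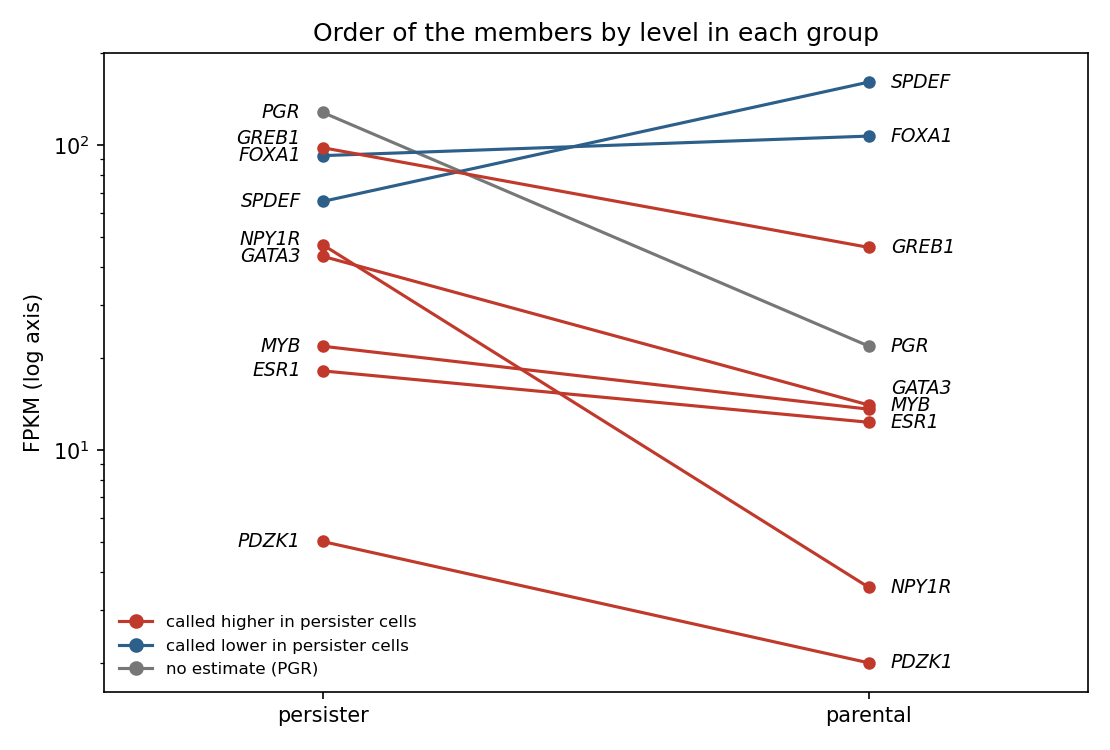
FPKM on a log axis in persister cells (left) and parental cells (right) for the 9 genes, joined by lines coloured by call, with gene names moved apart where they would overlap. PGR leads in persister cells and SPDEF in parental cells, and PDZK1 is lowest in each.

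The order of levels changed between the groups. In persister cells it ran from PGR (128 FPKM) through GREB1, FOXA1, SPDEF, NPY1R, GATA3 and MYB to ESR1 (18.2 FPKM) and PDZK1 (5.02 FPKM). In parental cells it ran from SPDEF (161 FPKM) through FOXA1, GREB1, PGR, GATA3, MYB and ESR1 to NPY1R (3.55 FPKM) and PDZK1 (2.01 FPKM). Neighbours such as GREB1 and FOXA1 in persister cells (98.2 and 92.5 FPKM) or GATA3 and MYB in parental cells (14.1 and 13.6 FPKM) lay close together. Without values per library it was not possible to say whether such neighbours differ. Because there were only 2 group values per gene, no genes with the most similar pattern were sought.

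By role, both receptors and all 3 targets had higher FPKM in persister cells, PGR without a test, and the factors were split. Differences were 0.52 and 2.49 for the 2 receptors, from 1.00 to 3.41 for the 3 targets and from -1.29 to 1.55 for the 4 factors. Summed FPKM was 146 in persister cells and 34.3 in parental cells for the receptors. Most of the receptor sum was PGR, with 128 FPKM in persister and 21.9 FPKM in parental cells, from the row without a test. The sum was 150 in persister cells and 51.8 in parental cells for the targets. For the factors it was 223 in persister cells and 296 in parental cells. No test was made between these roles, since a role holds 2 to 4 genes chosen for this description.

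A wider list of estrogen-regulated genes went in both directions. The 3 target members, which are part of it, lay above its median. They were chosen with results of these data known, so their place on the list is a description only. Of 41 genes listed, 40 had a test, of which 20 were called higher and 13 lower, with a median of 0.15. With equal FPKM sums 22 were higher and 11 lower, with a median of 0.51. Without the 5 members on that list (NPY1R, GREB1, PDZK1, PGR and MYB), 16 of 36 tested genes were higher and 13 lower, with a median of 0.09. Over all tested genes, 30.9% were higher and 39.0% lower, with a median of -0.04. With equal FPKM sums, 5216 of the 13617 tested genes were higher and 4298 lower. The median in that setting was 0.22 over tested genes with at least 1 FPKM in both groups. HSPB8, a small heat shock protein gene, was at 148 FPKM in persister cells and 31.0 FPKM in parental cells. IGF1R, the receptor for insulin-like growth factor I, was at 24.7 FPKM in persister cells and 8.09 FPKM in parental cells. In the other direction, the receptor tyrosine kinase gene RET was at 6.77 FPKM in persister cells and 25.9 FPKM in parental cells, and the trefoil factor gene TFF3 at 116 FPKM in persister and 360 FPKM in parental cells. Each of these 4 had q = 0 in the authors' deposited table. Commonly used readouts of the receptor were among both the 20 genes called higher (NPY1R, GREB1 and PDZK1) and the 13 called lower. TFF1, CCND1 and SLC39A6, among the 13, were named after their values were seen. The trefoil factor gene TFF1 was at 946 FPKM in persister cells and 1281 FPKM in parental cells (q = 4.46e-11 in the authors' deposited table). CCND1, which encodes cyclin D1, was at 50.4 FPKM in persister cells and 109.7 FPKM in parental cells (q = 0 in the authors' deposited table). The zinc transporter gene SLC39A6 was at 45.0 FPKM in persister cells and 59.2 FPKM in parental cells (q = 2.00e-06 in the authors' deposited table). The difference was -1.11 for CCND1, -0.44 for TFF1 and -0.39 for SLC39A6. The last 2 were close in size to the log2 ratio of the FPKM sums, 0.36 for parental over persister cells, so they depended strongly on scaling. Several of the listed genes are also controlled by other pathways, so the list does not measure receptor activity alone.

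Estrogen receptor coregulators went in both directions. Of 20 coactivators, corepressors and associated chromatin factors, 9 were called higher, 5 lower and 6 not called, with a median of 0.09 (0.45 with equal FPKM sums). This is 45% higher and 25% lower, against 30.9% higher and 39.0% lower over all tested genes. With equal FPKM sums, the median over tested genes with at least 1 FPKM in both groups was 0.22. CITED2, a transcriptional adaptor that binds CBP and p300, was at 47.3 FPKM in persister cells and 14.9 FPKM in parental cells. CREBBP, which encodes the acetyltransferase CBP, was at 12.1 FPKM in persister cells and 6.55 FPKM in parental cells. NCOA2, a p160 coactivator that binds steroid receptors, was at 12.1 FPKM in persister cells and 7.27 FPKM in parental cells. The corepressor gene TLE3 was at 11.1 FPKM in persister cells and 23.8 FPKM in parental cells. All 4 had q = 0 in the authors' deposited table.

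Genes that respond to androgens or glucocorticoids were called in both directions. Of 14 listed, 10 had a test, of which 6 were called lower and 2 higher, with a median of -0.20 (-0.54 with a pseudocount of 0.1 and -0.59 with none). All tested genes also leaned lower, with 39.0% lower and 30.9% higher. PIP, a secreted apocrine protein induced by androgens, was at 2.97 FPKM in persister cells and 29.5 FPKM in parental cells. ERRFI1, a feedback inhibitor of EGFR and HER2 that glucocorticoids also induce, was at 5.03 FPKM in persister cells and 11.7 FPKM in parental cells. SLC45A3, an androgen-induced transporter gene, was at 0.185 FPKM in persister cells and 1.23 FPKM in parental cells. PER1, a clock gene that glucocorticoids induce, was higher, at 3.19 FPKM in persister cells and 0.927 FPKM in parental cells. These 4 calls had q = 0 in the authors' deposited table. KLK2 and KLK4 were listed at 0 in both groups. With only genes of at least 1 FPKM on average, 7 had a test, of which 3 were called lower and 2 higher. Under that limit, 4751 of all 10669 tested genes were called lower and 2985 higher. The other calls of lower on the list were of genes under 1 FPKM on average.

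Chaperones and co-chaperones linked to steroid receptors, whose effects on the receptors differ, were mostly lower. Of 9 tested, 8 were called lower and 1 higher, with a median of -0.74, against 39.0% lower among all tested genes. HSP90AA1, the inducible HSP90, was at 167 FPKM in persister cells and 317 FPKM in parental cells. Its partner HSPA8 was at 159 FPKM in persister cells and 424 FPKM in parental cells, and the co-chaperone STIP1 at 95.1 FPKM in persister and 191 FPKM in parental cells. FKBP4, an immunophilin of receptor complexes, was at 52.3 FPKM in persister cells and 88.1 FPKM in parental cells. With both groups scaled to the same sum, 8 were still called lower, with a median of -0.38. In that setting, 4298 of the 13617 tested genes were lower. The median over tested genes with at least 1 FPKM in both groups was then 0.22.

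**Figure D4:**
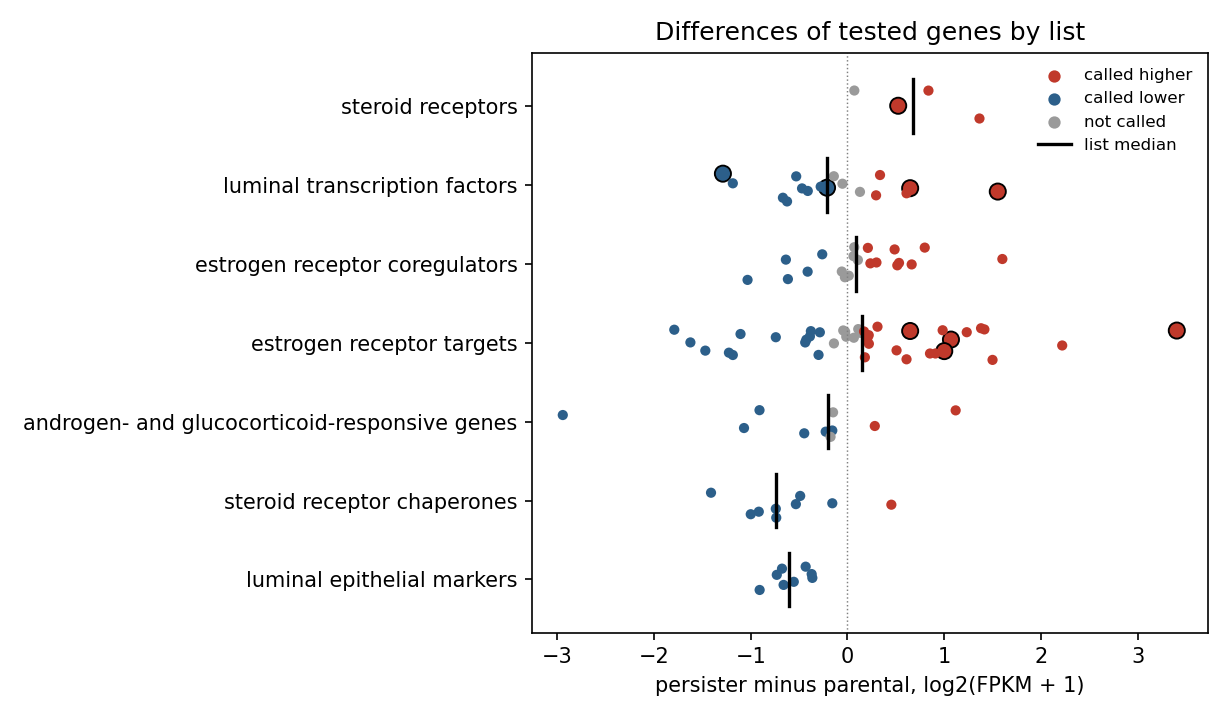
Difference between persister and parental cells on the log2(FPKM + 1) scale for the tested genes of 7 lists, coloured by call, with members outlined and larger and a bar at each list median. The medians run from 0.68 for the steroid receptors and 0.15 for estrogen receptor targets to -0.74 for the chaperones. Outlined targets, chosen with results of these data known, lie to the right of their list median.

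Markers of the luminal cell were present but lower in persister cells. All 8 luminal epithelial markers were called lower, and none was lower by as much as 1 on the log2(FPKM + 1) scale. Over all tested genes, 39.0% were called lower and 30.9% higher. With equal FPKM sums, 4298 of the 13617 tested genes were lower and 5216 higher. The luminal markers had a median of -0.61 (-0.25 with equal FPKM sums, where all 8 were still lower). Their summed levels were 2078 FPKM in persister cells and 2971 FPKM in parental cells. CLDN7 (49.2 FPKM in persister cells, 93.2 FPKM in parental cells), KRT7 (290 FPKM in persister and 482 FPKM in parental cells), EPCAM (89.6 FPKM in persister, 144 FPKM in parental cells) and CDH1 (90.0 FPKM in persister, 143 FPKM in parental cells) had the largest differences. All 8 basal and myoepithelial markers were under 1 FPKM in both groups, summing to 1.31 FPKM in persister cells and 1.35 FPKM in parental cells. Of 5 basal markers tested, KRT17 was called higher (0.109 FPKM in persister cells, 0.0324 FPKM in parental cells) and TP63 lower (0.408 FPKM in persister and 0.653 FPKM in parental cells). Among 10 stromal, endothelial and immune markers, 8 were under 1 FPKM in both groups, with sums of 10.8 FPKM in persister cells and 16.9 FPKM in parental cells. COL1A1 made up most of these sums (8.73 FPKM in persister cells, 13.4 FPKM in parental cells). CDH5 (0.0441 FPKM in persister and 0.592 FPKM in parental cells) and VWF (0.0884 FPKM in persister, 0.487 FPKM in parental cells) were also called lower. ERBB2, the amplified gene that defines the line, is listed at 0 in both groups, so the label could not be checked by it.

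The genomic neighbours of the 9 genes were split in direction. The nearest protein-coding gene of the table on each side of a member was taken in the order of RefSeq GRCh38.p14, and these 18 genes were chosen after values were seen. Of them, 5 were called higher, 5 lower and 5 not called, and 3 had no test. These counts lay near the shares over all tested genes, 30.9% higher and 39.0% lower. With equal FPKM sums 7 neighbours were higher and 3 lower, and 54.8% of all called genes were higher. Of the 8 called neighbours of a called member, 4 shared its direction. CCDC170, which lies next to ESR1 on chromosome 6, was at 10.0 FPKM in persister cells and 4.63 FPKM in parental cells (q = 0 in the authors' deposited table). SYNE1, on the other side of ESR1, was at 0.406 FPKM in persister cells and 0.383 FPKM in parental cells and was not called (q = 0.486 in the authors' deposited table).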

How the data were processed

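Polyadenylated RNA from 3 persister and 2 parental BT474 libraries was sequenced, with libraries prepared by a method that does not keep strand, per the labels' protocols. Reads were handled with CASAVA 1.8, TopHat2 2.0.6 and the Cufflinks programs (Cuffdiff 2.0.2) on build hg18, per the submitters' processing notes, which give no settings. The authors deposited 1 table of 18803 rows with an FPKM value per gene and group, per the file headers. The q-value (an adjusted p-value) of their comparison was also deposited by the authors, without its adjustment. Their deposited fold change, the ratio of persister to parental FPKM, was used only to find rows without an estimate (fold of 1 and q-value of 1 although FPKM differed by more than 0.6%). Counts and values per library are not in this table, so depth is unknown, and no interval, SD, leave-one-out fit or blocked fit was made.

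Genes with a q-value below 1 were taken as tested and those under 0.05 as called. The planned model on values per library did not apply. Of 269 symbols on several rows, only the row of highest mean FPKM was kept, and 26 rows with a date in place of the symbol were kept under their transcript identifier. Differences are log2(FPKM + 1), persister minus parental. The counting rules were tested on simulated data. Tools were Python 3.11.15, pandas 2.3.3, numpy 2.4.6 and matplotlib 3.10.9.

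The members and the 10 gene lists were chosen with earlier results of these data known. The genes named are the 9 members, the 5 steroid receptor genes listed, and for each other list up to 4 called non-members with the largest difference, or the 2 with the highest mean FPKM where fewer than 2 were called. KLK2, KLK4, ERBB2, NPY5R, PGR-AS1, PDZK1P1, TFF1, CCND1, SLC39A6, CCDC170 and SYNE1 were named after their values were seen. A further gene of the receptor list is not reported here. Alternatives changed the pseudocount, the scaling or centring of the groups, the q-value threshold, a minimum FPKM and the treatment of repeated symbols.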

Additional observations from a re-analysis of the deposited data

How the results depend on the processing

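The 7 alternative settings included a pseudocount of 0.1, no pseudocount, equal FPKM sums and centring on the median of tested genes. The others were a q-value threshold of 0.01, a mean FPKM of at least 1, and summing the rows of a symbol. Only scaling and centring can turn the sign of a difference. The 9 genes kept their sign there, except that FOXA1 was at 0.14 with equal FPKM sums, in place of -0.21. Equal FPKM sums left 1 member called lower, in place of 2, FOXA1 being the gene that turned. The authors' q-values were unchanged in every setting, so no call was tested anew. At the threshold of 0.01, all 8 members with a test stayed called. The minimum FPKM and the summing of rows could not alter a member, since each stood on 1 row with a mean above 1 FPKM. With a mean FPKM of at least 1, which leaves fewer genes tested, 3 androgen- and glucocorticoid-responsive genes were called lower in place of 6, 1 stromal, endothelial or immune marker in place of 3, and 0 basal markers were called higher and 0 lower in place of 1 each. The other 149 counts by list and setting stayed within 1.5 times the count as reported. The range of ESR1 was 0.52 to 0.90 and that of PGR, which had no test, 2.49 to 2.89 over these settings. No paired analysis was possible because the table holds 1 value per group and no values per library, and leaving out a replicate could not be run for the same reason. Depth is unknown, so what it limits, above all for genes under 1 FPKM, could not be set.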
